A study of Mus musculus with 48 samples.

Results

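Methyl groups on the cytosines of mammalian DNA are copied, set and removed by a small number of enzymes. The 9 genes described here are those of this machinery, chosen by name for their role, with earlier results of these data known. They are 9 of the 55335 genes in the tables. *Dnmt1* encodes the methyltransferase that copies methylation onto new DNA strands, and *Uhrf1* the protein that brings it to replicated DNA. *Dnmt3a* and *Dnmt3b* encode the enzymes that methylate unmodified sites, and *Dnmt3l* their partner without catalytic activity. *Tet1*, *Tet2* and *Tet3* encode the enzymes that oxidize methylcytosine, and *Tdg* the glycosylase that excises the oxidized bases. *Dnmt1* was also set against the other 8.

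The study asked what the nuclear protein NRDE2 does to RNA in mouse embryonic stem cells (mESCs), together with the helicase MTREX and the splicing-associated protein CCDC174. All lines were edited clones of male hybrid cells of the strains 129 and C57BL/6 with Cre-ERT2 in the *Rosa26* locus, some of them also with BirA, grown with serum, LIF and 2i. *Nrde2*-WT and *Mtrex*-WT were lines for the conditional knockout of these genes. *Ccdc174*-WT carried a fusion of *Ccdc174* with the FKBP12F36V domain, through which dTAG-13 depletes the protein. *Nrde2*-KO cells received 4-hydroxytamoxifen (4OHT, 100 nM), which was left on for 4 d, against 3 d in *Mtrex*-KO cells, *Ccdc174-dTAG* cells received dTAG-13 (500 nM) for 24 h, and *Nrde2*Δ*200*, *Nrde2-D174R* and all WT cells received neither. RNA-seq was made in 28 libraries and Ribo-seq, which sequences footprints of ribosomes on mRNA, in 4, with 2 libraries per group. *Nrde2*-KO, *Nrde2*Δ*200* and *Nrde2-D174R* were compared with 1 shared pair of *Nrde2*-WT libraries. *Mtrex*-KO, *Ccdc174-dTAG* and a second *Nrde2*-KO experiment each had a WT pair of their own. The second *Nrde2*-KO experiment and the *Ccdc174-dTAG* experiment were also sequenced after 4 h of cycloheximide (CHX, 0.1 mg/ml), which stops translation. In the KO and depleted groups the drug goes with the loss of the protein, and the variant lines are other clones than their WT, so neither can be told apart from the genotype.

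Levels are given as normalized CPM, the reads of a gene as a share of those of its library, scaled between libraries. A gene was called higher or lower where the adjusted p of limma was below 0.01, with the adjustment made over all genes tested. It was called past 2-fold where it also moved by more than 2-fold. The p-values measure the spread between the libraries of these groups, which may be technical. In bulk RNA a lower level can mean fewer cells with the transcript or less of it in each cell.

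The cells carried the markers of their label. All 10 markers of embryonic stem cells, among them *Pou5f1*, *Nanog* and *Tfcp2l1*, were above 1 CPM in every group, with a sum of 6498 CPM in *Nrde2*-WT and 4959 in *Nrde2*-KO, and of 6850 in *Mtrex*-WT and 5370 in *Mtrex*-KO. The sum of 6 fibroblast markers was 2.00, 2.94, 2.92 and 3.05 CPM in these groups, and in Ribo-seq 7.06 in WT and 13.7 in *Nrde2*-KO. The sum of 9 markers of 2-cell-like cells, a state that some mESCs enter, was 3.08 CPM in *Nrde2*-WT and 2.99 in *Nrde2-D174R*, 32.3 in *Nrde2*-KO and 18.7 in *Nrde2*Δ*200*. It came to 221 CPM in *Mtrex*-KO (333 and 110 in the 2 libraries) against 10.3 in its WT, 114 in the second *Nrde2*-KO against 7.58, and 6.28 in *Ccdc174-dTAG* against 4.71. Markers of other lineages moved as well. The sum of 5 trophectoderm markers was 58.9 CPM in *Mtrex*-WT and 217 in *Mtrex*-KO, of which *Krt8* alone was 42.8 and 187. With CHX the stem cell sum went from 6408 to 4142 CPM in *Nrde2*-WT and from 5383 to 3331 in *Ccdc174*-WT, and that of 4 primed epiblast markers from 49.7 to 206 and from 22.0 to 106. In Ribo-seq the primed epiblast sum was 103 in *Nrde2*-KO replicate 1 and 5.20 in replicate 2, against 8.48 and 8.68 in WT, and *Otx2* alone had 100 and 2.99 CPM in the KO. The sum of 6 primitive endoderm markers was 3.49 in WT and 8.74 in *Nrde2*-KO there. In RNA-seq it was 12.4 in *Nrde2*-WT, 20.9 in *Nrde2*-KO and 19.4 in *Nrde2*Δ*200*, 9.16 against 16 in the second experiment and 10.5 against 18.1 with loss of MTREX. The primed epiblast sum was 22.1 CPM in *Mtrex*-WT, with *Otx2* highest at 11.7, and 47.2 in *Mtrex*-KO, where *Dusp6* alone was 38.3. Of these 4 markers, 3 reached 1 CPM in *Mtrex*-WT and 2 in *Mtrex*-KO, so the list did not rise as a whole. With CHX the 2-cell-like sum was 5.71 CPM in *Nrde2*-WT and 63.2 in *Nrde2*-KO of the second experiment. The groups below thus also differ in these markers.

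*Nrde2* and *Mtrex* RNA was lower in the knockout libraries without CHX, but *Nrde2* RNA was not lower in those with CHX. *Nrde2* was 41.6 and 40.5 CPM in *Nrde2*-WT and 19.3 and 20.4 in *Nrde2*-KO, and 53.6 and 52.2 against 20 and 19.7 in the second experiment. It was 12.3 and 14.3 against 2.34 and 3.25 in Ribo-seq. In these comparisons all KO libraries lay below their WT libraries, with log2 fold changes of −1.05 (adjusted p = 4.3e-07), −1.41 (adjusted p = 1.9e-08) and −2.16 (adjusted p = 3.4e-07). *Mtrex* was 119 and 112 CPM in *Mtrex*-WT and 46.4 and 41.6 in *Mtrex*-KO (log2 fold change −1.41, adjusted p = 5.7e-10). With CHX, *Nrde2* RNA was 244 and 226 CPM in WT and 259 and 250 in *Nrde2*-KO. The value of a gene sums the reads of all its exons, including those outside the deleted part, so it does not check the label of these libraries. *Ccdc174-dTAG* removes a protein, so its RNA, 28.3 and 28.3 CPM in WT and 35.4 and 38.2 after dTAG-13, checks nothing either.

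The 9 genes covered a wide range of levels in untreated cells. Between genes, levels are comparable only per kb of exon, on a linear scale of normalized CPM per kb. In *Nrde2*-WT, *Uhrf1* stood first with 156, above 98.9% of 14882 genes, and *Dnmt1* next with 64.2, above 95.8%. *Tet1* (29.1), *Dnmt3l* (29.0) and *Tet2* (27.9) followed with overlapping libraries, then *Dnmt3b* (18.0). *Dnmt3a* (2.92), *Tet3* (0.715) and *Tdg* (0.322) were low. *Tdg* had 36 to 91 reads in an RNA-seq library, and reads it shares with near-identical copies would not be in its count, so its level is uncertain. In *Nrde2*-WT the proteins that copy methylation were thus the most abundant at the RNA level, and those of de novo methylation and oxidation all lay below them. In *Ccdc174*-WT *Dnmt1* (66.5) overlapped with *Dnmt3l* (63.4), and per kb of 1 transcript *Dnmt3l* (113) came before *Dnmt1* (91.4). In *Nrde2*-KO, *Dnmt1* (40.7) and *Tet2* (40.0) overlapped after *Uhrf1*. Per kb of 1 transcript *Dnmt1* (55.9) came there after *Tet2* (73.5) and *Dnmt3l* (59.3), so its place depends on the length used. In *Mtrex*-KO the order was *Dnmt3l* (77.7), *Tet1* (49.6), *Dnmt1* (48.0) and *Uhrf1* (38.6), of which the last 3 overlapped with their neighbours. *Ccdc174*-WT differed from the other WT lines in *Dnmt3l*, which was 199 and 180 CPM there and between 56.2 and 92.0 CPM in the libraries of the other WT lines without CHX.

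**Figure D1:**
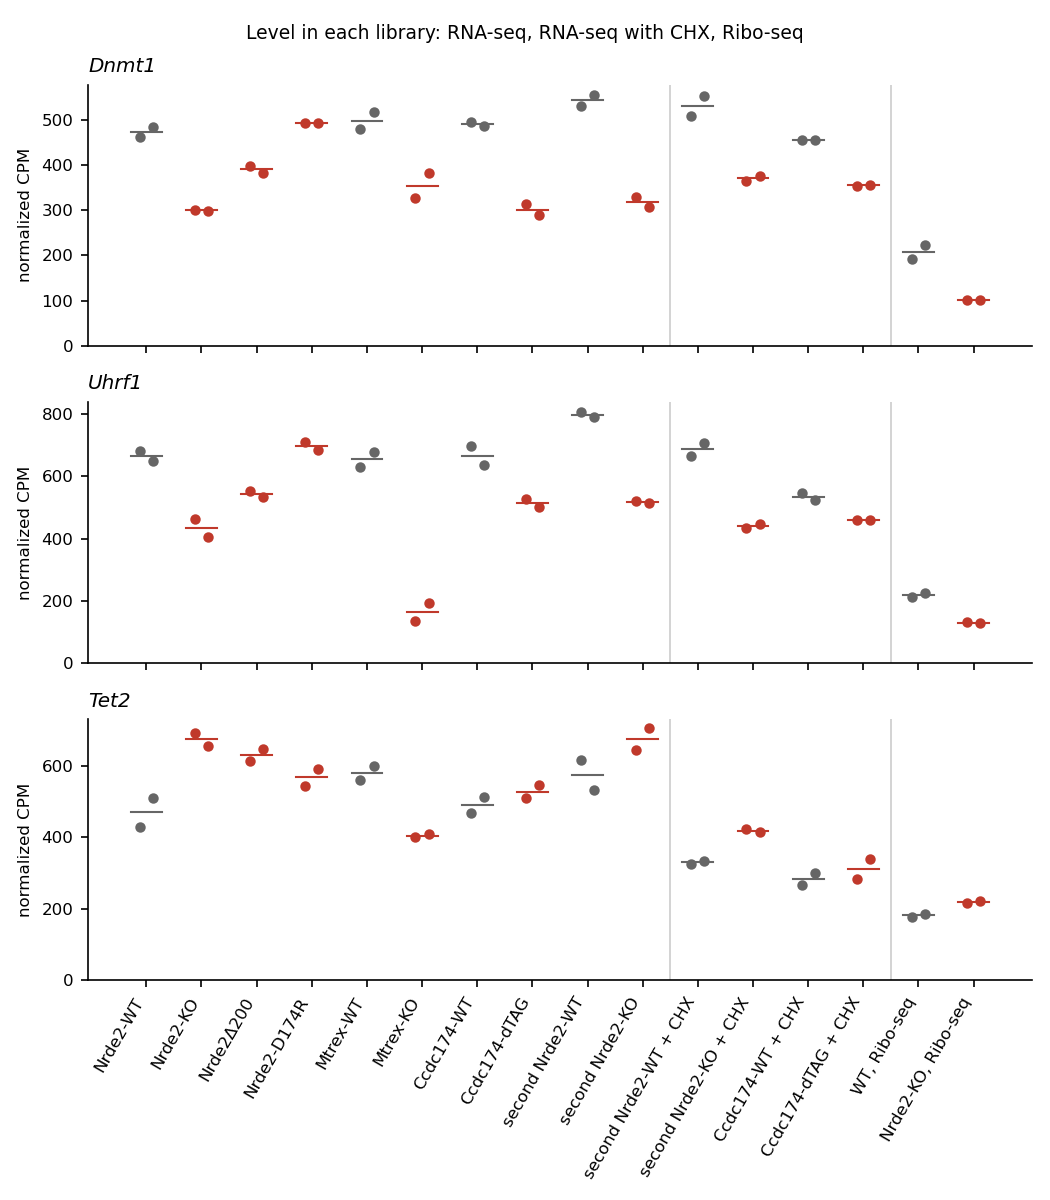
Normalized CPM of *Dnmt1*, *Uhrf1* and *Tet2* in each library, with bars at the group means. WT groups are grey and mutant or depleted groups red.

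In *Nrde2*-KO the RNA of both proteins that copy methylation was lower than in WT and that of 1 oxidizing enzyme higher. *Dnmt1* was 463 and 484 CPM in *Nrde2*-WT and 302 and 299 in *Nrde2*-KO, and *Uhrf1* 682 and 651 against 465 and 405. *Tet2* was 428 and 512 CPM in WT and 694 and 656 in *Nrde2*-KO. The 3 genes kept WT and KO libraries apart, with *Dnmt1* and *Uhrf1* low and *Tet2* high in the KO. Log2 fold changes were −0.67 (SE 0.09, adjusted p = 2.0e-05) for *Dnmt1*, −0.63 (SE 0.13, adjusted p = 0.00101) for *Uhrf1* and 0.51 (SE 0.10, adjusted p = 8.4e-04) for *Tet2*. These 3 of the 9 were called, where 18.3% of all genes tested were called, and none was past 2-fold, where 5.02% were. The 3 genes of de novo methylation were not called: *Dnmt3a* (log2 fold change −0.34, adjusted p = 0.109, and 0.00358 with only the libraries compared) lay lower in both KO libraries, *Dnmt3b* (0.01, adjusted p = 0.964) overlapped and *Dnmt3l* (0.19, adjusted p = 0.525) lay higher. Of the remaining genes, *Tet1* (−0.11, adjusted p = 0.59) and *Tdg* (0.05, adjusted p = 0.905) were close to 0, and *Tet3* was 12.9 and 10.9 CPM in WT and 21.6 and 14.5 in *Nrde2*-KO (0.55, adjusted p = 0.058). *Uhrf1* lost its call with CPM as deposited (−0.56, adjusted p = 0.0178), without *Nrde2*-WT replicate 1 (adjusted p = 0.0148) or without KO replicate 2 (−0.54, adjusted p = 0.0209), and *Tet2* without WT replicate 1 (0.39, adjusted p = 0.0253) or KO replicate 1 (adjusted p = 0.0151).

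In the second experiment on *Nrde2*-KO, which has separate WT libraries, *Dnmt1*, *Uhrf1* and *Dnmt3a* were called lower. *Dnmt1* was 531 and 556 CPM in WT and 329 and 308 in *Nrde2*-KO, and *Uhrf1* 806 and 790 against 520 and 514. Both were low in both KO libraries, with log2 fold changes of −0.78 (SE 0.09, adjusted p = 3.7e-06) and −0.63 (SE 0.13, adjusted p = 0.00102). *Dnmt3a* was 57.4 and 74.1 CPM in WT and 40.1 and 41.5 in *Nrde2*-KO, and was called lower here (−0.68, SE 0.16, adjusted p = 0.00305). *Tet2* was 617 and 533 against 644 and 705 CPM, high in both KO libraries but not called (0.23, adjusted p = 0.0922). In total 3 of 9 were called, all lower, against 18.5% of all genes called and 11.4% called lower. The others were not called, with *Dnmt3b* at −0.25, *Dnmt3l* at −0.12, *Tet1* at −0.07, *Tet3* at 0.10 and *Tdg* at 0.15. The effects of the experiments were tested against each other. No member passed, none had an unadjusted p below 0.05, and the difference was −0.11 (SE 0.12) for *Dnmt1*, −0.34 (SE 0.22) for *Dnmt3a* and −0.29 (SE 0.14) for *Tet2*. It was 0.00 for *Uhrf1*, −0.27 for *Dnmt3b*, −0.30 for *Dnmt3l*, 0.04 for *Tet1*, −0.45 for *Tet3* and 0.10 for *Tdg*. In this test limma called 0% of all genes, with 906 of 14889 at an unadjusted p below 0.05, while DESeq2 called 3 and edgeR 0. The call of *Dnmt3a* was lost with no filter (adjusted p = 0.0158), without *Nrde2*-WT replicate 2 of this experiment (−0.50, adjusted p = 0.0654), KO replicate 1 (adjusted p = 0.0218) or KO replicate 2 (adjusted p = 0.0201). *Uhrf1* was not called without KO replicate 2 (adjusted p = 0.0113) or with CPM as deposited (−0.57, adjusted p = 0.0159).

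The variants of NRDE2 were set beside the knockout, with which they share the WT libraries. *Nrde2*Δ*200* lacks an amino-terminal part of the protein and *Nrde2-D174R* carries a substitution in it. In *Nrde2*Δ*200*, *Dnmt1* was 399 and 383 CPM and *Uhrf1* 553 and 535. In *Nrde2-D174R* they were 493 and 494 CPM and 712 and 685 CPM, where WT was 463 and 484 CPM and 682 and 651 CPM. Both genes thus lay between WT and *Nrde2*-KO in *Nrde2*Δ*200* and above all WT libraries in *Nrde2-D174R*. Log2 fold changes in *Nrde2*Δ*200* were −0.28 (SE 0.09, adjusted p = 0.037) for *Dnmt1* and −0.29 (SE 0.13, adjusted p = 0.122) for *Uhrf1*, so neither was called. *Tet2* was 614 and 649 CPM in *Nrde2*Δ*200*, above both WT libraries, and was called (0.43, SE 0.10, adjusted p = 0.00682). It was the only 1 of 9 called, where 7.37% of all genes were. *Dnmt3a* was 35.0 and 38.8 CPM there against 49.1 and 48.0 in WT (−0.40, adjusted p = 0.0938). *Dnmt3b* (−0.30), *Dnmt3l* (0.11), *Tet1* (−0.12), *Tet3* (0.44) and *Tdg* (0.06) were not called. *Tet2* lost its call without *Nrde2*-WT replicate 1 (0.31, adjusted p = 0.113), *Nrde2*Δ*200* replicate 1 (adjusted p = 0.0245) or replicate 2 (adjusted p = 0.0867), and with no filter (adjusted p = 0.0221) or CPM as deposited (adjusted p = 0.0253).

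In *Nrde2-D174R* limma called 0 of the 9 genes and 0.410% of all genes tested. At an unadjusted p below 0.05 stood 2 of the 9 and 2601 of 14889 genes. The smallest adjusted p among the 9 was that of *Tet2*, which was 544 and 593 CPM (0.28, SE 0.10, adjusted p = 0.163). *Dnmt3l* was 67.9 and 56.0 CPM, below both WT libraries at 81.3 and 92.0 (−0.49, SE 0.20, adjusted p = 0.228). *Dnmt1* was at 0.06 (SE 0.09, adjusted p = 0.776) and *Uhrf1* at 0.07 (SE 0.13, adjusted p = 0.829). The rest were at −0.02 (*Dnmt3a*), 0.12 (*Dnmt3b*), 0.11 (*Tet1*), 0.41 (*Tet3*) and 0.25 (*Tdg*).

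Tests of the groups against each other separated the knockout from both variants by *Dnmt1*. It was lower in *Nrde2*-KO than in *Nrde2*Δ*200* (log2 difference −0.39, SE 0.09, adjusted p = 0.00596), as the only 1 of 9 called beside 5.79% of all genes. The others differed by −0.34 (*Uhrf1*), 0.06 (*Dnmt3a*), 0.32 (*Dnmt3b*), 0.08 (*Dnmt3l*), 0.01 (*Tet1*), 0.08 (*Tet2*), 0.11 (*Tet3*) and −0.01 (*Tdg*). With no filter (adjusted p = 0.0166) or CPM as deposited (adjusted p = 0.0879) *Dnmt1* was not called, which left 0 of 9. With only the libraries compared 3 of 9 were called. Against *Nrde2-D174R*, *Dnmt1* (−0.73, SE 0.09, adjusted p = 1.1e-05) and *Uhrf1* (−0.70, SE 0.13, adjusted p = 6.0e-04) were lower in *Nrde2*-KO, 2 of 9 beside 14.1% of all genes. *Dnmt3l* was 98.1 and 101 CPM in *Nrde2*-KO, above both *Nrde2-D174R* libraries, and not called (0.67, SE 0.20, adjusted p = 0.0219). Also uncalled there were *Dnmt3a* (−0.32), *Dnmt3b* (−0.11), *Tet1* (−0.22), *Tet2* (0.24), *Tet3* (0.14) and *Tdg* (−0.20). The difference of *Dnmt1* between *Nrde2*-KO and *Nrde2*Δ*200* was not called when any 1 of the 4 libraries was left out (adjusted p between 0.0341 and 0.0563). *Uhrf1* against *Nrde2-D174R* was not called without KO replicate 2 (adjusted p = 0.0149) or *Nrde2-D174R* replicate 1 (adjusted p = 0.0111), or with CPM as deposited (−0.56, adjusted p = 0.0199).

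After 24 h of CCDC174 depletion *Dnmt1* was called lower and the other 8 genes were not. *Dnmt1* was 314 and 289 CPM after dTAG-13, low in both libraries beside 496 and 486 CPM in *Ccdc174*-WT. The log2 fold change was −0.71 (SE 0.09, adjusted p = 2.3e-05). It was the 1 of 9 called, where 5.57% of all genes were. *Uhrf1* was 699 and 635 CPM in WT and 526 and 501 after dTAG-13, also apart, but not called (−0.38, SE 0.13, adjusted p = 0.0559). *Dnmt3l* was 199 and 180 against 148 and 137 CPM (−0.42, SE 0.20, adjusted p = 0.216), and *Dnmt3a* lay lower in both treated libraries as well (−0.22, adjusted p = 0.419). *Dnmt3b* (−0.36), *Tet1* (−0.14), *Tet2* (0.10), *Tet3* (0.01) and *Tdg* (0.19) overlapped between WT and *Ccdc174-dTAG*. In the test of this effect against that of *Nrde2*-KO, 0 of 9 were called by limma, beside 1.62% of all genes. Of the 9, 1 had an unadjusted p below 0.05, *Tet2* (log2 difference −0.41, SE 0.14, adjusted p = 0.0863), and 3301 of all genes did. The difference was −0.04 (SE 0.12) for *Dnmt1*, 0.25 (SE 0.18) for *Uhrf1*, 0.12 for *Dnmt3a*, −0.37 for *Dnmt3b*, −0.60 for *Dnmt3l*, −0.03 for *Tet1*, −0.53 for *Tet3* and 0.14 for *Tdg*.

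In *Mtrex*-KO, where 56.0% of all genes were called, genes of the machinery moved in both directions. The share of reads that lay in genes was 72.1 and 82.7% in the *Mtrex*-KO libraries, against 86.4 and 89.3% in *Mtrex*-WT. *Dnmt1* was 479 and 518 CPM in *Mtrex*-WT and 326 and 382 in *Mtrex*-KO, and *Uhrf1* fell from 631 and 678 CPM to 135 and 194. Log2 fold changes were −0.52 (SE 0.09, adjusted p = 4.7e-05) for *Dnmt1* and −2.04 (SE 0.13, adjusted p = 3.1e-10) for *Uhrf1*, which was past 2-fold. Of the de novo group, *Dnmt3l* was 62.4 and 89.6 CPM in WT and 196 and 268 in *Mtrex*-KO. It was high in both KO libraries and called past 2-fold (1.59, SE 0.20, adjusted p = 2.4e-06). *Dnmt3a* (−0.37, adjusted p = 0.0449) and *Dnmt3b* (0.09, adjusted p = 0.667) overlapped with WT. The *Tet* genes parted. *Tet1* rose from 395 CPM in both WT libraries to 874 and 658 (0.92, SE 0.14, adjusted p = 1.1e-05), and *Tet3* from 10.6 and 8.46 to 26.4 and 15.0 CPM (1.03, SE 0.21, adjusted p = 3.5e-04).

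*Tet2* instead fell in *Mtrex*-KO, from 560 and 599 CPM to 402 and 409 (−0.54, SE 0.10, adjusted p = 1.2e-04), with all KO libraries below WT. *Tdg* was unmoved at 2.08 and 1.71 against 2.27 and 1.56 CPM (−0.02, adjusted p = 0.954). In total 6 of 9 were called, 3 higher and 3 lower, and 3 were past 2-fold. These shares are close to those of all genes, 56.0% called and 26.7% past 2-fold. Set against the *Nrde2*-KO effect, 4 of 9 differed, where 31.3% of all genes did. *Uhrf1* (log2 difference −1.40, SE 0.18, adjusted p = 7.3e-06) and *Tet2* (−1.05, SE 0.14, adjusted p = 1.2e-05) were lower with MTREX loss. *Dnmt3l* (1.41, SE 0.29, adjusted p = 7.6e-04) and *Tet1* (1.02, SE 0.19, adjusted p = 3.2e-04) were higher. Without *Mtrex*-KO replicate 2, *Tet3* differed too (adjusted p = 0.00948). *Dnmt1* was not called in this test (0.15, SE 0.12, adjusted p = 0.328), with 0.29 (adjusted p = 0.038) without *Mtrex*-KO replicate 1 and 0.04 without replicate 2, nor were *Dnmt3a* (−0.03), *Dnmt3b* (0.07), *Tet3* (0.48) and *Tdg* (−0.07). With CPM as deposited neither *Dnmt3l* (0.96, adjusted p = 0.0139) nor *Tet1* (0.58, adjusted p = 0.0127) was called in it. Without *Mtrex*-KO replicate 1, the library with the higher sum of 2-cell-like markers, *Tet3* was no longer called (0.64, adjusted p = 0.0103) and *Dnmt3a* was (adjusted p = 9.8e-04). With only the 4 libraries compared, *Dnmt1* (adjusted p = 0.0131) and *Tet3* (adjusted p = 0.0241) were not called, and with CPM as deposited *Dnmt1* was at −0.89, *Tet1* at 0.54, *Tet2* at −0.91 and *Tet3* at 0.65, all called, as was *Dnmt3a* (adjusted p = 7.6e-05).

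**Figure D2:**
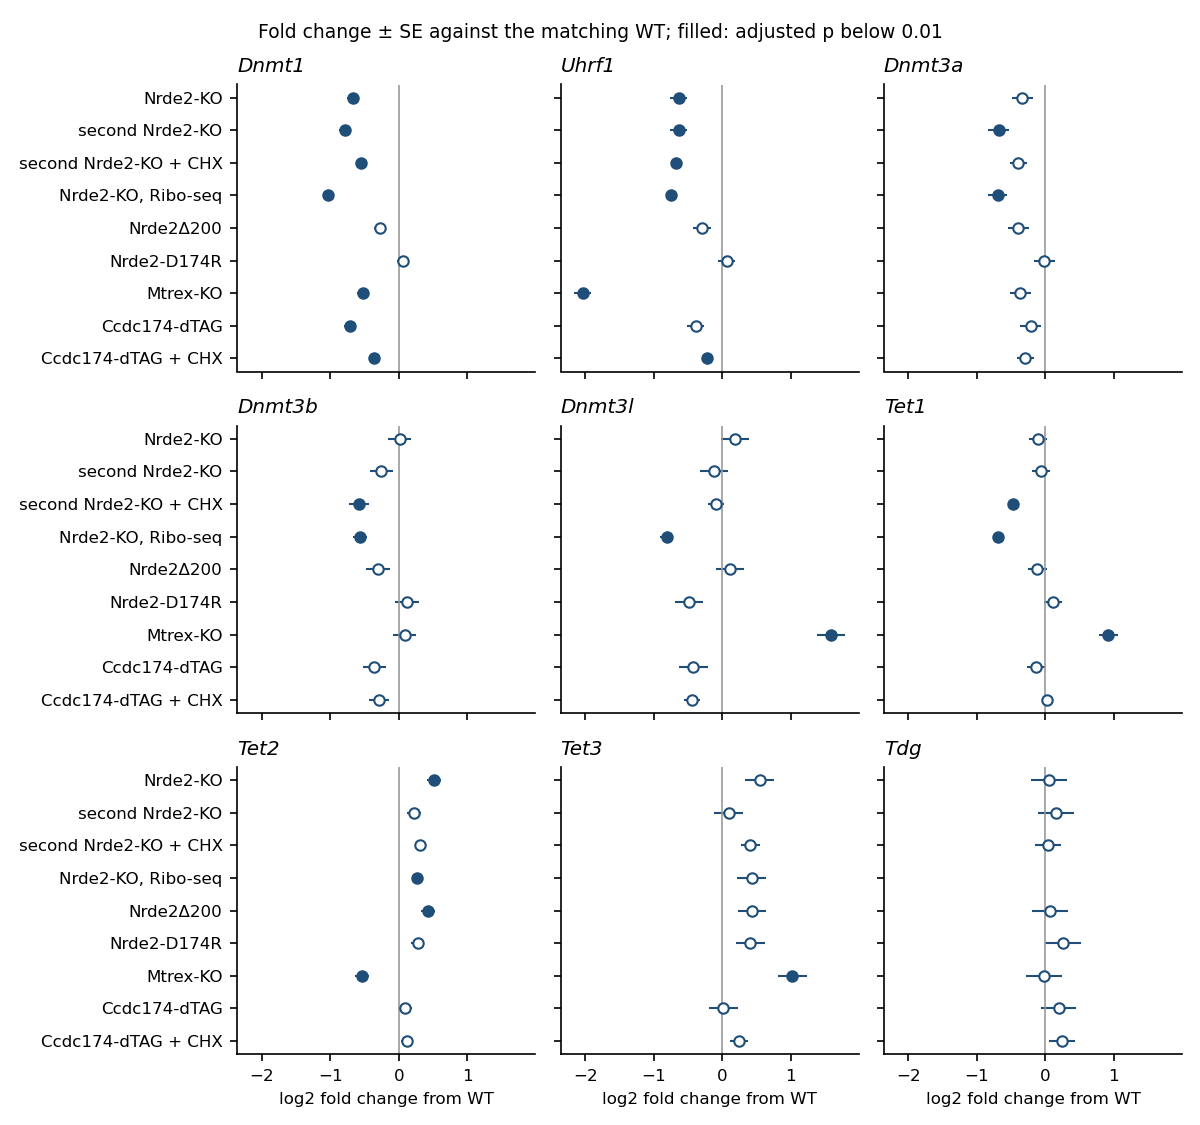
Log2 fold change with its SE of each of the 9 genes in 9 comparisons with WT. Filled points were called.

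Cycloheximide stops translation and with it the decay of transcripts that depends on translation. In *Nrde2*-WT of the second experiment it left *Dnmt1* at 509 and 554 CPM, where it was 531 and 556 without CHX (−0.04, SE 0.06, adjusted p = 0.585). In *Ccdc174*-WT *Dnmt1* was 456 and 456 against 496 and 486 CPM (−0.12, SE 0.06, adjusted p = 0.121). *Tet2* fell in both lines, to 326 and 335 CPM (−0.80, SE 0.10, adjusted p = 5.5e-06) and to 267 and 302 CPM (−0.80, SE 0.10, adjusted p = 5.1e-06). *Uhrf1* fell to 667 and 707 CPM (−0.23, adjusted p = 0.00553) and to 545 and 525 CPM (−0.33, adjusted p = 3.1e-04). *Tet3* was called in *Nrde2*-WT only, at 6.04 and 8.06 against 12 and 11.7 CPM (−0.75, adjusted p = 1.1e-04), and *Dnmt3b* in *Ccdc174*-WT, at 66.4 and 55.1 against 117 and 90.5 CPM (−0.77, adjusted p = 0.00259). The others were not called in the lines, *Dnmt3a* (−0.36 and −0.36), *Dnmt3l* (0.13 and −0.22), *Tet1* (−0.07 and −0.12) and *Tdg* (−0.54 and −0.76), nor was *Dnmt3b* in *Nrde2*-WT (−0.55) or *Tet3* in *Ccdc174*-WT (−0.23). That makes 3 of 9 in each line, all lower, where 47.7 and 49.6% of all genes were called and 22.9 and 24.6% called lower. With the CPM as deposited, *Uhrf1* was at −0.0073 and −0.08 and not called in either line (adjusted p = 0.923 and 0.224), so its fall depends on the scaling. It was not called in *Nrde2*-WT with any 1 library left out either (adjusted p between 0.0108 and 0.062). *Dnmt3b* lost its call in *Ccdc174*-WT without replicate 1 (adjusted p = 0.039) or CHX replicate 2 (adjusted p = 0.034), with no filter (adjusted p = 0.0167) and with CPM as deposited (adjusted p = 0.02). Calls were gained in *Nrde2*-WT without replicate 1 (*Dnmt3b*, adjusted p = 0.0051, and *Tdg*, adjusted p = 0.00769) or CHX replicate 2 (*Dnmt3b*, adjusted p = 0.00505, and *Dnmt3a*, adjusted p = 0.00558), and in *Ccdc174*-WT without replicate 2 (*Tdg*, adjusted p = 0.00683).

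With CHX the lower level of *Dnmt1* after loss of NRDE2 or CCDC174 was still called. *Dnmt1* was 365 and 376 CPM in *Nrde2*-KO with CHX and 355 and 356 in *Ccdc174-dTAG* with CHX, below all their WT libraries with CHX. Log2 fold changes were −0.55 (SE 0.05, adjusted p = 1.4e-05) and −0.37 (SE 0.05, adjusted p = 6.4e-04). *Uhrf1* was 436 and 446 CPM in *Nrde2*-KO with CHX (−0.67, SE 0.05, adjusted p = 2.8e-06) and 459 and 461 in *Ccdc174-dTAG* with CHX (−0.23, SE 0.05, adjusted p = 0.00705). In *Nrde2*-KO, *Dnmt3b* was 55.5 and 80.6 CPM in WT and 48.2 and 43.2 in the KO (−0.58, SE 0.15, adjusted p = 0.00865), and *Tet1* 454 and 524 against 349 and 370 CPM (−0.47, SE 0.07, adjusted p = 6.0e-04). Both lay lower in all KO libraries. *Tet2* lay higher at 424 and 414 against 326 and 335 CPM and was not called by limma (0.31, adjusted p = 0.0105), where edgeR (adjusted p = 0.00737) and DESeq2 (adjusted p = 3.3e-04) called it. Not called either were *Dnmt3a* (−0.40), *Dnmt3l* (−0.08), *Tet3* (0.41) and *Tdg* (0.03). In *Ccdc174-dTAG* with CHX the uncalled genes were *Dnmt3a* (−0.30), *Dnmt3b* (−0.28), *Dnmt3l* (−0.44), *Tet1* (0.02), *Tet2* (0.12), *Tet3* (0.24) and *Tdg* (0.24). In total 4 of 9 were called in *Nrde2*-KO with CHX, all lower, beside 28.2% of all genes called and 17.4% called lower, and 2 of 9 in *Ccdc174-dTAG* with CHX, beside 9.03%. With the replicate number as a block, *Dnmt3b* lost its call in *Nrde2*-KO (adjusted p = 0.0163) and *Tet2* gained one, higher (adjusted p = 0.00709). In *Ccdc174-dTAG* the block took the call of *Uhrf1* (adjusted p = 0.012), which left 1 of 9. The calls of *Dnmt3b* in *Nrde2*-KO and of *Uhrf1* in *Ccdc174-dTAG* did not hold with 1 library left out, nor with no filter (adjusted p = 0.0719 and 0.0273). *Dnmt3b* was at −0.32 (adjusted p = 0.0522) without WT replicate 2 and had an adjusted p of 0.0276 or 0.0737 without KO replicate 1 or 2, and *Uhrf1* had one between 0.019 and 0.0513 without any of the 4. *Tet1* was not called without KO replicate 1 (adjusted p = 0.0107) or with no filter (adjusted p = 0.0111), and *Dnmt3a* was without WT replicate 1 (adjusted p = 7.7e-04) and *Tet3* without WT replicate 2 (adjusted p = 0.00547).

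The effects with and without CHX were also tested against each other. For *Nrde2*-KO limma called 0 of 9, with 2 of the 9 at an unadjusted p below 0.05, beside 0.456% of all genes called and 2279 at an unadjusted p below 0.05. For *Ccdc174-dTAG* it called 0 of 9, with 1 at an unadjusted p below 0.05, beside 0.244% called and 1454 at that p. The difference for *Dnmt1* was 0.23 (SE 0.09, adjusted p = 0.235) and 0.33 (SE 0.09, adjusted p = 0.121), and for *Tet1* in *Nrde2*-KO −0.41 (SE 0.18, adjusted p = 0.307). The other differences in *Nrde2*-KO were −0.04 (*Uhrf1*), 0.28 (*Dnmt3a*), −0.33 (*Dnmt3b*), 0.03 (*Dnmt3l*), 0.08 (*Tet2*), 0.31 (*Tet3*) and −0.12 (*Tdg*). In *Ccdc174-dTAG* they were 0.15 (*Uhrf1*), −0.08 (*Dnmt3a*), 0.07 (*Dnmt3b*), −0.03 (*Dnmt3l*), 0.15 (*Tet1*), 0.02 (*Tet2*), 0.22 (*Tet3*) and 0.03 (*Tdg*).

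In Ribo-seq of *Nrde2*-KO, both genes that copy methylation, the 3 de novo genes and *Tet1* were called lower. *Dnmt1* was 193 and 224 CPM in WT and 101 and 102 in *Nrde2*-KO, and *Uhrf1* 211 and 224 against 131 and 127. Both were low in both KO libraries, and *Dnmt1* (−1.03, SE 0.08, adjusted p = 1.4e-08) was the only 1 of the 9 past 2-fold, with *Uhrf1* at −0.75 (SE 0.08, adjusted p = 2.5e-07). With CPM as deposited (−0.88) or without WT replicate 2 (−0.94), *Dnmt1* was called but not past 2-fold. *Dnmt3a* was 22.8 and 25.6 CPM in WT and 16.4 and 13.4 in the KO, *Dnmt3b* 44.9 and 51.7 against 30.6 and 34.5, and *Dnmt3l* 56.9 and 61.9 against 34.2 and 33.4. All 3 de novo genes were lower in both KO libraries, with log2 fold changes of −0.70 (adjusted p = 4.3e-04), −0.57 (adjusted p = 2.9e-04) and −0.81 (adjusted p = 1.8e-06). *Tet1* fell from 230 and 210 CPM to 136 and 135 (−0.69, adjusted p = 8.3e-07). *Tet2* was called higher, with 178 and 187 CPM in WT and 217 and 223 in *Nrde2*-KO (0.27, SE 0.07, adjusted p = 0.00777). *Tet3*, with 36 to 58 reads in a library, also lay higher in both KO libraries and was not called (0.43, adjusted p = 0.126), and *Tdg*, with 1 to 4 reads, could not be tested.

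Of the 8 tested, 7 were called in Ribo-seq, 6 lower and 1 higher, where 25.2% of all genes were called and 14.2% called lower. Past 2-fold, 1 of 8 stood beside 6.42%. Per kb of coding sequence the order in WT was *Uhrf1* (92.7), *Dnmt3l* (47.0) overlapping with *Dnmt1* (42.9), *Tet1* (35.5) and *Tet2* (31.7). In *Nrde2*-KO it was *Uhrf1* (55.1), *Tet2* (38.2), *Dnmt3l* (26.8), *Tet1* (22.0) and *Dnmt1* (20.9), so that *Dnmt1* went from place 3 to place 5. Per kb of 1 transcript *Dnmt1* went from place 2 to place 4. The call of *Tet2* was lost without WT replicate 1 (adjusted p = 0.0523), KO replicate 1 (adjusted p = 0.0206) or KO replicate 2 (adjusted p = 0.0516). With the CPM as deposited or no filter 4 genes were called, without *Tet2*, *Dnmt3a* (adjusted p = 0.0138 and 0.0149) and *Dnmt3b* (adjusted p = 0.0404 and 0.0142). DESeq2 did not call *Dnmt3a* (adjusted p = 0.017) and *Tet2* (adjusted p = 0.0142).

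The Ribo-seq effect was tested against the RNA-seq effect of the first *Nrde2*-KO experiment. *Dnmt3l* (log2 difference −0.98, SE 0.12, adjusted p = 3.3e-04) and *Tet1* (−0.57, SE 0.10, adjusted p = 0.002) were lower in footprints than in RNA, 2 of 8 called beside 7.17% of all genes. The RNA of both had not been called (0.19 and −0.11). In this test, against the first experiment, all 8 differences were below 0, with a median of −0.35 against 0.03 over all genes tested. *Dnmt1* was at −0.35 (SE 0.11, adjusted p = 0.0414), *Dnmt3b* at −0.57 (SE 0.18, adjusted p = 0.0414), *Dnmt3a* at −0.35 (adjusted p = 0.148), *Tet2* at −0.23 (adjusted p = 0.189), *Uhrf1* at −0.11 (adjusted p = 0.55) and *Tet3* at −0.10 (adjusted p = 0.841). *Tdg* was not tested. The log2 fold changes in Ribo-seq of *Tet2* (0.27) and *Tet3* (0.43) lay above those in the RNA-seq of the second experiment (0.23 and 0.10). The 2 assays were not made from the same libraries, and with the RNA-seq of the second experiment in place of the first neither gene was called (*Dnmt3l* −0.67, adjusted p = 0.057; *Tet1* −0.60, adjusted p = 0.025), and *Dnmt1* was at −0.23 (adjusted p = 0.234). *Tet1* lost its call without Ribo-seq WT replicate 1 (−0.52, adjusted p = 0.0103) and with CPM as deposited (−0.51, adjusted p = 0.0443), and *Dnmt3b* gained one without *Nrde2*-WT replicate 2 (adjusted p = 0.00423).

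*Dnmt1* was then set against the other 8 in each library, as its log2 level minus the mean log2 level of the others, a value without a test. It was 2.60 and 2.62 in *Nrde2*-WT and 2.52 and 2.63 in *Nrde2-D174R*, but 1.86 and 1.96 in *Nrde2*-KO and 2.35 and 2.33 in *Nrde2*Δ*200*. Relative to the others, *Dnmt1* was thus low in the knockout, in between in *Nrde2*Δ*200*, and overlapped with WT in *Nrde2-D174R*. The mean differences from WT were −0.70, −0.27 and −0.04 in this order. In the second experiment the value was 2.81 and 2.59 in WT and 2.17 and 2.00 in the KO (−0.62), in Ribo-seq 2.56 and 2.71 against 1.94 and 1.87 (−0.73). *Tdg* has 1 to 4 reads in Ribo-seq, and when it is left out, a choice made after seeing the data, the Ribo-seq difference is −0.63. It was 2.69 and 2.80 in *Mtrex*-WT against 1.96 and 2.33 in *Mtrex*-KO (−0.60), and 2.38 and 2.55 in *Ccdc174*-WT against 1.91 and 1.90 after dTAG-13 (−0.56). With CHX the differences were −0.37 for *Nrde2*-KO and −0.29 for *Ccdc174-dTAG*. In all of these but *Nrde2-D174R* the mutant or depleted libraries lay below WT. CHX itself went the other way, with 0.35 in *Nrde2*-WT and 0.33 in *Ccdc174*-WT, where the mean of the other 8 was lower by 0.39 and 0.44. Against *Uhrf1* alone, *Dnmt1* differed by −0.04 in *Nrde2*-KO, −0.15 in the second experiment, 0.12 in *Nrde2*-KO with CHX, −0.28 in Ribo-seq, −0.33 in *Ccdc174-dTAG* and 1.52 in *Mtrex*-KO. *Dnmt1* was called lower than in WT in 7 of 9 comparisons of a mutant or depleted group with WT, all but *Nrde2*Δ*200* and *Nrde2-D174R*. The second *Nrde2*-KO and the *Ccdc174-dTAG* experiments enter this count both with and without CHX. The paper presents *Dnmt1* as an example of an affected gene from data of this series, so the count is no separate support.

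Genes with a profile like that of *Dnmt1* were sought among 10406 genes of at least 5 CPM over the 14 group means of the RNA-seq. The 5 most alike were *Vars*, which charges tRNA with valine (r = 0.98), *Pold1*, the catalytic subunit of a replicative DNA polymerase (0.98), *Tti1* (0.97), *Mta1* of the NuRD complex (0.97) and *Nelfcd* (0.97). Groups that share WT libraries or a genotype make these values high for any gene with the same pattern, and they carry no p. The log2 fold change of *Vars* was −1.79 in *Nrde2*-KO (adjusted p = 1.7e-07), −1.01 in *Nrde2*Δ*200* (adjusted p = 1.9e-04), 0.01 in *Nrde2-D174R* (adjusted p = 0.985), −1.50 in *Mtrex*-KO (adjusted p = 8.2e-08) and −1.46 in *Ccdc174-dTAG* (adjusted p = 2.6e-06). *Pold1* was at −1.17, −0.80, −0.10, −1.10 and −1.13 in the same order. Both genes were chosen for their likeness over these same groups, so their fold changes are no separate test of it. Of the other 8, *Dnmt3a* (0.66) and *Uhrf1* (0.60) came closest to *Dnmt1*, at ranks 532 and 760 of these 10406 genes. *Tdg* lay below 5 CPM and was not among them. *Dnmt3b* (0.21) and *Tet1* (0.07) were near 0, and *Tet2* (−0.21), *Dnmt3l* (−0.24) and *Tet3* (−0.52) below it.

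Partners of these enzymes were followed in lists chosen from general knowledge, outside the 9 genes, with earlier results of these data known. Shares of all genes beside the list counts hold calls in both directions. Exceptions are the 14.2% in Ribo-seq and 11.4% in the second *Nrde2*-KO, which were called lower. The first holds 12 cofactors and regulators of maintenance, such as the ligase *Lig1* and the histone methyltransferase *Ehmt2*. In *Nrde2*-KO 6 of 12 were called, all lower, beside 18.3% of all genes, with a median log2 fold change of −0.30 against −0.01 over all genes tested. *Ehmt2* (149 to 82.8 CPM, log2 fold change −0.85, adjusted p = 7.7e-05), *Cdca7* (−0.53, adjusted p = 0.004), *Lig1* (−0.35, adjusted p = 0.00486) and *Usp7* (−0.35, adjusted p = 0.00546) had the smallest p. *Mtrex*-KO called 8 of 12, all lower and 5 of them past 2-fold, beside 56.0% of all genes called and 26.7% past 2-fold, with a median of −0.87. Here *Lig1* (412 to 170 CPM, −1.30, adjusted p = 6.5e-10), *Pcna* (142 to 49.5 CPM, −1.55, adjusted p = 1.6e-09) and *Ehmt2* (−1.39, adjusted p = 3.6e-08) led. *Ehmt2* was also the 1 of 12 called in *Ccdc174-dTAG* (−0.60, adjusted p = 0.00415), where 5.57% of all genes were. *Nrde2*Δ*200* called 2 of 12 (7.37% of all genes), *Uhrf2* (65.2 to 37.6 CPM, −0.80, adjusted p = 2.4e-05) and *Cdca7* (−0.56, adjusted p = 0.006), and the second *Nrde2*-KO 2 (18.5% of all genes), *Ehmt2* (−1.22, adjusted p = 1.6e-06) and *Hdac1* (−0.47, adjusted p = 0.00247), all lower. In Ribo-seq 6 of 12 were called lower, beside 14.2% of all genes (median −0.44), with *Ehmt2* (−1.11, adjusted p = 1.4e-08) and *Hells* (−0.94, adjusted p = 4.4e-08) first.

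Enzymes that supply the methyl donor formed a list of 9, with a median of −0.20 in both *Nrde2*-KO experiments, where that of all genes was −0.01 and 0.00. *Shmt2*, a mitochondrial enzyme of folate metabolism, was the 1 of 9 called in *Nrde2*-KO, beside 18.3% of all genes (154 to 75.8 CPM, −1.03, adjusted p = 1.4e-06). It was again the 1 called in the second experiment, beside 18.5% (182 to 95.6 CPM, −0.93, adjusted p = 3.7e-06). With the replicate number as a block 3 of the list were called in *Nrde2*-KO, 2 in the second experiment and 1 in *Ccdc174-dTAG*. In *Mtrex*-KO 4 of 9 were called, all lower (median −0.28), a smaller share than the 56.0% of all genes: *Shmt2* (−1.65, adjusted p = 4.0e-10), *Shmt1* (−1.50, adjusted p = 4.8e-09), *Ahcy* (−1.45, adjusted p = 1.3e-06) and *Mtrr* (−0.31, adjusted p = 0.00457). In Ribo-seq 5 of 9 were called lower, beside 14.2% of all genes, with a median of −0.55. In *Ccdc174-dTAG* limma called 0 of 9, with 6 at an unadjusted p below 0.05 (median −0.20 against 0.02), beside 5.57% of all genes called. *Mat2a*, whose product makes the methyl donor itself, fell with CHX from 553 to 108 CPM in *Nrde2*-WT (−2.37, adjusted p = 9.1e-10) and from 795 to 169 CPM in *Ccdc174*-WT (−2.25, adjusted p = 1.4e-09).

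Among 17 genes of base excision repair and of cofactors of the TET enzymes, 5 were called in *Nrde2*-KO, all lower (median −0.23), beside 18.3% of all genes: *Idh2* (255 to 116 CPM, −1.15, adjusted p = 4.7e-06), *Lig3* (−0.60, adjusted p = 2.9e-05), *Parp1* (896 to 524 CPM, −0.79, adjusted p = 1.3e-04), *Idh1* (−0.45, adjusted p = 0.00103) and *Apex1*. *Idh1* and *Idh2* make the 2-oxoglutarate that TET enzymes use. The second experiment called 7 of 17 lower (median −0.18), beside 18.5% of all genes called and 11.4% called lower. Ribo-seq called 7 lower and 1 higher (median −0.29), beside 25.2%. *Ccdc174-dTAG* called 1 of 17, beside 5.57% of all genes, *Lig3* (median of the list −0.12, *Lig3* 182 to 122 CPM, −0.58, adjusted p = 7.9e-05). Beside 56.0% of all genes, *Mtrex*-KO called 10 of 17 lower (median of the list −0.38), with *Idh2* (−1.85, adjusted p = 1.4e-09) and *Idh1* (−0.95, adjusted p = 4.8e-08) first, and 3 higher, among them *Gadd45a* (4.58 to 22.0 CPM, 2.16, adjusted p = 5.0e-08). Of 7 methyl-CpG readers, limma called 0 in *Nrde2*-KO (2 at an unadjusted p below 0.05, median 0.06, beside 18.3% of all genes) and 5 in *Mtrex*-KO (median 0.66, beside 56.0% of all genes), with *Zbtb38* (66.1 to 121 CPM, 0.84, adjusted p = 2.9e-07), *Mbd2* (0.66, adjusted p = 1.1e-04) and 2 others higher and *Mbd3* (−0.69, adjusted p = 6.5e-06) lower. Of 7 genes of repeat and imprint silencing, *Mtrex*-KO (median −0.02, with 56.0% of all genes called) called 3 higher, with *Zfp809* (0.92, adjusted p = 4.6e-07) and *Atf7ip* (0.99, adjusted p = 4.0e-06) first, and *Trim28* (−0.96, adjusted p = 6.6e-06) and *Morc3* (−0.56, adjusted p = 6.9e-05) lower. In *Nrde2*-KO limma called 0 of these 7 (18.3% of all genes, median 0.01), with 1 at an unadjusted p below 0.05, and in *Ccdc174-dTAG* 1 of 7 (5.57% of all genes, median −0.04), *Setdb1* (−0.36, adjusted p = 0.00761).

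Germline genes that DNA methylation is known to silence were read out last, 16 of 17 of them tested without CHX. In *Mtrex*-KO 11 were called higher, 9 of them past 2-fold, and 1 lower, beside 56.0% of all genes called and 26.7% past 2-fold, with a median log2 fold change of 1.20 against −0.02 over all genes tested. *Taf7l* rose from 0.902 to 14.2 CPM (3.64, adjusted p = 5.8e-09), *Mael* from 0.879 to 5.67 (2.36, adjusted p = 1.8e-08), *Ddx4* from 5.26 to 18.1 (1.71, adjusted p = 3.6e-08) and *Hormad1* from 9.14 to 42.2 (2.16, adjusted p = 1.0e-07). The sum of 2-cell-like markers was high in the same libraries. In *Nrde2*-KO 1 of 16 was called, beside 18.3% of all genes, *Asz1* (0.639 to 1.93 CPM, 1.27, adjusted p = 0.0017), with a median of 0.39. With the replicate number as a block 3 were called. The second experiment called 4 higher (median 0.62), beside 18.5% of all genes, *Stk31* (18.7 to 31.0 CPM, 0.71, adjusted p = 3.4e-04), *Sycp3* (0.78, adjusted p = 0.00372), *Tex11* (0.66, adjusted p = 0.00586) and *Ddx4* (0.62, adjusted p = 0.00587). *Tex11* was the 1 of 16 called in *Ccdc174-dTAG*, beside 5.57% of all genes (11.2 to 19.2 CPM, 0.74, adjusted p = 0.00607), and *Hormad1* the 1 of 16 called in *Nrde2*Δ*200*, beside 7.37%, lower (14.2 to 7.19 CPM, −0.96, adjusted p = 0.00573). In *Nrde2-D174R* limma called 0 genes of any of the 6 lists, with 0 to 3 of a list at an unadjusted p below 0.05. Methylation itself was not measured, so none of these values says how much of it the cells carried.

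The 5′ splice sites of the 9 genes were read from the genome to place 1 intron of *Dnmt1* that the paper names. U1 snRNA, which marks the start of an intron, pairs with 3 bases of the exon and 6 of the intron. The site that pairs with it at all 9 bases and the site of intron 10 of 38 in *Dnmt1* are shown because they carry this comparison. The second lies at chr9:20932109-20932117 of GRCm38, on the minus strand, and pairing bases are in capitals.

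U1-pairing site: CAGGTAAGT

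*Dnmt1* intron 10: aAGGcAAag

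Intron 10, of 1949 bases, differs from the pairing site by C1A, T5C, G8A and T9G, counted from the 5′ end of the 9 bases, which leaves 5 matches. The change T5C gives it a GC start, where the other 37 introns of *Dnmt1* begin with GT, as do 99.0% of the introns of all genes tested. A C at this place was found in 0.792% of them, and among the 9 genes also in intron 5 of *Dnmt3a*. As few or fewer matches were found in 16.4% of 137187 introns of 12594 genes, or in 10.9% when only the 6 intron bases are counted, and 4 introns have these 9 bases. Within *Dnmt1* only intron 29 has fewer matches, 4, and 6 of the 38 introns (15.8%) have 5 or fewer. The median was 6 for *Dnmt1*, *Uhrf1*, *Dnmt3a*, *Dnmt3b*, *Tet3* and *Tdg* and 7 for *Dnmt3l* and *Tet2*. Introns with 5 or fewer matches were 6 of 22 in *Dnmt3b* (27.3%), 3 of 12 in *Dnmt3l*, 2 of 16 in *Uhrf1* (12.5%) and 0 of 10 in *Tet2*. The gene-level values do not show whether intron 10 or any other intron was spliced.

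**Figure D3:**
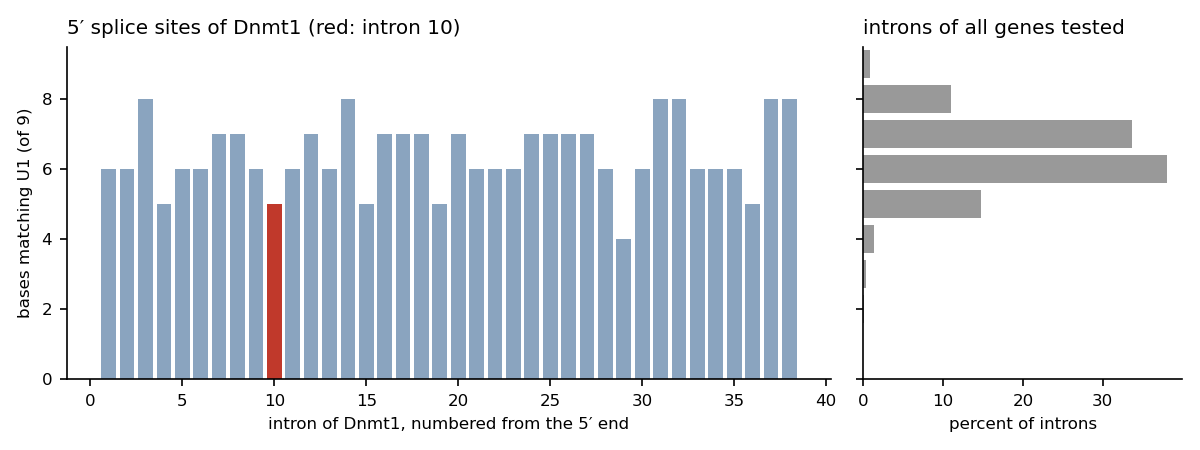
Matches with U1 at the 5′ splice site of each intron of *Dnmt1*, and the share of introns of all genes tested with each number of matches.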

How the data were processed

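Reads were aligned by the authors to mm10 (STAR) and counted per gene by strand (featureCounts), and the authors deposited CPM for 55335 genes in 28 RNA-seq and 4 Ribo-seq libraries. Footprints for Ribo-seq were made with Benzonase. The other 16 samples of the series were not analysed here. Of the values of each library, 100% were whole multiples of 1 read within 0.1, so reads were recovered (28683644 to 36272309 in genes per RNA-seq library, 3475051 to 5035940 per Ribo-seq library). At these depths *Tdg* and *Tet3* rest on few reads, mainly in Ribo-seq. Genes were named with GENCODE M21 of GRCm38 (55154 found, 181 not).

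CPM were divided by median-of-ratios factors, and limma 3.58.1 (R 4.3.3) with a trend was fitted to log2 values after adding 0.25, where the mean over a fit reached 0.5 CPM. Fits held the 20 libraries without CHX, the 8 with CHX, the 4 of Ribo-seq, 8 for Ribo-seq against RNA-seq and 16 for the effect of CHX. Adjusted p are Benjamini-Hochberg values over all genes tested in a comparison. As alternatives, recovered reads were tested with the quasi-likelihood test of edgeR 4.0.16 and with DESeq2 1.42.0, and edgeR called 2733 genes in *Nrde2*-KO where limma called 2726. The others were another added value (0.1 or 1), a minimum of 1 CPM or none, unscaled CPM as deposited, a fit of only the libraries compared, the replicate number as a block, and each library left out in turn. The scripts were tested on simulated data. Tables and sites were read with pandas 2.3.3 and pyfaidx 0.9.0.4 (Python 3.11.15).

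All 9 genes are named in every comparison. Of each list, up to 4 genes with the smallest adjusted p and a mean of at least 1 CPM are named, with a 5th where a list is counted out, and the 5 genes most alike to *Dnmt1*. Splice sites were taken from 1 protein-coding transcript per gene. The 9 genes and the lists were chosen with earlier results of these data known.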

Additional observations from a re-analysis of the deposited data

Results flagged for a closer look

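The effect of *Nrde2*-KO was called different between Ribo-seq and the first RNA-seq experiment for 2 of the genes, in the test of the difference itself. For *Dnmt3l* the Ribo-seq effect minus the RNA-seq effect was −0.98 (−0.982 to 3 digits, SE 0.12, adjusted p = 3.3e-04). For *Tet1* it was −0.57 (−0.575 to 3 digits, SE 0.10, adjusted p = 0.002). With the RNA-seq of the second experiment neither was called (−0.67, adjusted p = 0.057, and −0.60, adjusted p = 0.025), and *Tet1* was not without Ribo-seq WT replicate 1 (adjusted p = 0.0103) or with CPM as deposited (adjusted p = 0.0443).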

How the results depend on the processing

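Of 2401 values of the 9 genes under the alternatives, 2192 kept their direction and their side of the threshold, 113 changed sign with a call in neither, 73 lost and 23 gained a call, and 0 had the opposite sign with a call. *Dnmt1* stayed called in *Nrde2*-KO (−0.70 to −0.60). Of 1620 counts of list genes 261 moved by over 1.5 times. For all changes below the cause was not tested. Δ*200* and *D174R* stand for the lines *Nrde2*Δ*200* and *Nrde2-D174R*.

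With no filter, the number called of the 9 was 0 in Δ*200*, 2 in *Nrde2*-KO with CHX, 1 in *Ccdc174-dTAG* with CHX, 4 in Ribo-seq and 0 for *Nrde2*-KO against Δ*200* (*Dnmt1* −0.39, adjusted p = 0.0166). With CPM as deposited it was 0 in Δ*200*, 4 in Ribo-seq, 1 for Ribo-seq against RNA-seq, 1 for CHX in *Ccdc174*-WT, 0 for *Nrde2*-KO against Δ*200* (*Dnmt1* −0.37, adjusted p = 0.0879), 1 against *D174R* and 2 for *Mtrex*-KO against the *Nrde2*-KO effect. *Dnmt1* changed sign there, uncalled, in *D174R* (−0.010), with CHX (0.18 and 0.13) and for *Mtrex*-KO against *Nrde2*-KO (−0.30). With only the libraries compared it was 2 in Δ*200*, 1 in *Ccdc174-dTAG* with CHX, 3 for *Nrde2*-KO against Δ*200* and 4 against *D174R*, and *Dnmt1* in *Mtrex*-KO was −0.60 (adjusted p = 0.0131). With the second RNA-seq experiment it was 0 for Ribo-seq against RNA-seq. Relative to the others without *Tdg*, *Dnmt1* was at −0.63 in Ribo-seq. By intron bases alone 10.9% of introns match U1 as poorly as intron 10 of *Dnmt1*. By transcript length, 3 genes in *Nrde2*-WT, 3 in *Nrde2*-KO, 2 in *Mtrex*-KO and 2 in *Ccdc174*-WT change place in the order.

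With 1 library left out, the remaining one assumed to vary like the other groups, 36 of 888 values of the 9 genes lost and 10 gained a call. The number called was 1 to 3 in *Nrde2*-KO, 0 to 1 in Δ*200*, 1 to 3 in the second *Nrde2*-KO, 2 to 5 in *Nrde2*-KO with CHX, 1 in *Ccdc174-dTAG* with CHX, 1 to 3 for Ribo-seq against RNA-seq, 0 for *Nrde2*-KO against Δ*200* and 1 to 2 against *D174R*. *Dnmt1* was −0.10 to 0.019 for CHX in *Nrde2*-WT, −0.43 to −0.37 for *Nrde2*-KO against Δ*200*, −0.094 to 0.022 for *Ccdc174-dTAG* against *Nrde2*-KO and 0.04 to 0.29 for *Mtrex*-KO against it. Relative to the other 8 it was −0.090 to 0.020 in *D174R*. The upper ends came without *Nrde2*-WT replicate 1 with CHX, *Ccdc174-dTAG* replicate 2 and *D174R* replicate 1 where the sign changed.

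Libraries share only a replicate number, with correlations of deviations between −0.03 and 0.42. With the replicate block, *Uhrf1* lost its call in *Ccdc174-dTAG* with CHX (−0.23, adjusted p = 0.012), which left 1 of 9 called. In *Nrde2*-KO with CHX *Dnmt3b* lost (−0.58, adjusted p = 0.0163) and *Tet2* gained its call (adjusted p = 0.00709). No other call of the 9 changed. Of the lists, 3 instead of 1 of the germline and of the methyl donor genes and 1 instead of 0 of the readers and of the silencing genes were called in *Nrde2*-KO, 2 instead of 1 germline genes in Δ*200*, and 1 instead of 0 and 2 instead of 1 methyl donor genes in *Ccdc174-dTAG* and the second *Nrde2*-KO. The genes called were 96 instead of 61 in *D174R*, and 1 instead of 0 between the *Nrde2*-KO experiments.

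Of all genes limma called 61 in *D174R*, 1098 in Δ*200*, 829 in *Ccdc174-dTAG*, 862 for *Nrde2*-KO against Δ*200*, 2103 against *D174R* and 241 for *Ccdc174-dTAG* against *Nrde2*-KO. With no filter these were 10, 623, 547, 512, 1401 and 74. Calls went from 4362 to 2538 in *Nrde2*-KO with CHX, 1398 to 316 in *Ccdc174-dTAG* with CHX and 3491 to 1747 in Ribo-seq, and from 69 to 37 and 37 to 20 for the effects with CHX against without. With CPM as deposited counts 1, 3, 4 and 6 became 36, 539, 528 and 154, and 435 were called instead of 917 for Ribo-seq against RNA-seq (576 with the second RNA-seq). DESeq2 called 249, 1317 and 656 for counts 1, 4 and 6, 1911 in Ribo-seq, and 241 and 123 for CHX against without. With only the libraries compared the first 5 were 281, 2205, 474, 2410 and 3488, with 5499 instead of 8338 in *Mtrex*-KO, and 16 and 0 for CHX against without.

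CPM as deposited moved the median over all genes by −0.36 in *Mtrex*-KO, 0.14 in Ribo-seq and 0.21 and 0.23 for CHX. Higher calls went from 39.4 to 55.6% in *Nrde2*-KO, 43.2 to 57.3% in Δ*200*, 49.5 to 27.5% in *Mtrex*-KO, 38.4 to 49.0% and 31.7 to 43.4% in *Nrde2*-KO and *Ccdc174-dTAG* with CHX, 43.7 to 69.1% in Ribo-seq, 69.1 to 89.7% against RNA-seq, and 52.0 to 76.2% and 50.4 to 75.5% for CHX in the WT lines. For *Nrde2*-KO they went from 32.5 to 43.9% against Δ*200* and 35.0 to 62.8% against *D174R*, and against *Nrde2*-KO from 55.1 to 22.7% for *Mtrex*-KO and 49.8 to 32.5% for *Ccdc174-dTAG*.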
